A study of Homo sapiens with 8 samples.

Results

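The genes described here are 36 aminoacyl-tRNA synthetases, 20 that serve the cytosol and 16 that serve mitochondria, out of 17309 genes with counts. They were taken by function, but the family itself was chosen by measured values of these data, the low TARS2 and LARS2 mRNA after NAT10 knockdown, to see whether other enzymes shared it. The knockdown values of TARS2 and LARS2 are therefore given as descriptions with no test, while the other 34 enzymes entered the list irrespective of their own change. All 36 were found by Entrez gene identifier and all 36 passed the filter on low counts, as did 13619 genes in all.

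SW480 and DLD-1 are established human colorectal cancer cell lines, labelled wild type. Each was treated with a lentivirus that carried a control short hairpin RNA (shControl) or a hairpin against NAT10 (shNAT10), which gave 4 groups of 2 libraries labelled as biological replicates. NAT10 is an RNA acetyltransferase that writes N4-acetylcytidine on RNA. Every group, controls included, was infected. The number of clones behind each culture is not given in the sources used here. RNA was selected with oligo(dT) and sequenced, so fewer cells and less RNA per cell cannot be told apart. The library totals lay between 15147805 and 17271336 counts. Values below are library-scaled counts after TMM normalization (CPM), with mean ± SD over 2 libraries, unless a level per length (TPM) is named. P-values measure only the spread between these libraries, whose separate cultures are named only as biological replicates. Log2 fold changes and their standard errors (SE) come from edgeR's quasi-likelihood test on all 13619 genes, and adjusted p means Benjamini-Hochberg over those genes. A gene is said to be called when its adjusted p was under 0.05.

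NAT10 mRNA in shNAT10 cells was 21.0% of its control mean in SW480 and 46.9% in DLD-1. Of 9 listed epithelial and intestinal marker genes, 8 were above 1 TPM in all libraries of SW480, and 8 in all libraries of DLD-1. KRT20, a keratin of differentiated intestinal cells, was the exception in SW480 and reached 0.226 TPM at most, and LGALS4, an intestinal lectin, was the exception in DLD-1. The 4 listed markers of T cells, fibroblasts and endothelium (CD3E, COL1A1, COL3A1 and PECAM1) did not exceed 0.651 TPM in any library.

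An aminoacyl-tRNA synthetase joins an amino acid to the tRNA that reads its codons, and every protein made in a cell depends on this step. Nuclear genes encode both the cytosolic enzymes and the separate set that is imported into mitochondria, where it serves the few proteins of the respiratory chain that mitochondria translate themselves. GARS1 and KARS1 each supply both compartments from the same gene and are counted with the cytosolic set. In the cytosol, several synthetases sit together in the multisynthetase complex on scaffold proteins, and many cytosolic synthetase genes are known targets of ATF4, the transcription factor of the amino acid and integrated stress response.

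The hairpin targets are shown first because the closest matches to that of shNAT10-1 within the family lie in TARS2 and LARS2. For shNAT10-2 the closest were CARS2, IARS1 and MARS2, with 14 of 19 bases. The study designed a pair of NAT10 hairpins, shNAT10-1 and shNAT10-2, and the labels do not say which was sequenced. Its xenograft and rescue experiments with knockdown cells used shNAT10-2. In the sequences that follow, capitals mark bases identical to the shNAT10-1 target, read 5′ to 3′ on the mRNA strand. The TARS2 window lies at chr1:150498909-150498927 on the plus strand of GRCh38, in coding exon 12 of 18, and the LARS2 window at chr3:45485756-45485774 on the plus strand, in coding exon 11 of 22. The TARS1 and TARS3 sequences are those aligned to the same protein positions as the TARS2 window.
shNAT10-1 target in NAT10: GGCCAAAGCTGTCTTGAAA
TARS2: atCCAAAGCTGTCTTGAtt
LARS2: GGCCAAAGCTGaCTTGgAA
TARS1: ataaAAgGtTGTtTgGAtt
TARS3: ataaAggGgTGTtTgcAgt

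TARS2, the mitochondrial threonyl-tRNA synthetase, shared 15 of 19 bases with the target as an unbroken run of 15, and differed by G1A, G2T, A18T and A19T. Positions start with 1 at the target's 5′ base, and the target base is written first. LARS2, the mitochondrial leucyl-tRNA synthetase, shared 17 of 19 bases, and differed by T12A and A17G with a longest run of 11. Of 13491 tested genes with a transcript sequence, 4 (0.0296%) held a window with at least 17 identical bases, 185 (1.37%) at least 15, and 2 (0.0148%) a run of at least 15, which were NAT10 and TARS2. The other 34 synthetases reached 14 identical bases at most, in AARS2, and runs of 11 at most, in LARS1. This search was chosen after the values were seen. At the TARS2 position, TARS1, the cytosolic threonyl-tRNA synthetase, shared 9 bases and TARS3, a second cytosolic threonyl-tRNA synthetase, shared 7, although their proteins were 54.0% and 55.3% identical to TARS2 over 700 aligned residues. For shNAT10-2 no synthetase shared more than 14 of 19 bases, and the longest run was 9. The guide strand of a hairpin is the strand that pairs with the mRNA. Sites for bases 2 to 8 of the shNAT10-2 guide lay in 3′ untranslated regions of TARS2 and HARS2 only, or 2 of 16 mitochondrial and 0 of 20 cytosolic enzymes. Of 13460 genes, 11.3% had such a site. For shNAT10-1 it was 3 of 16 and 1 of 20, without TARS2 and LARS2, beside 21.9% of genes.

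The genes outside the family with 16 or 17 shared bases had values on both sides of 0. They are named here after their values were seen. RPP25L and VMA12 shared 17 bases. RPP25L had log2 fold changes of 0.41 (SE 0.105) in SW480 and 0.02 (SE 0.111) in DLD-1. VMA12 had 0.03 (SE 0.0809) and −0.01 (SE 0.0856). Of all 20 genes with 16 or 17 shared bases besides NAT10 and the synthetases, 3 were called lower in SW480, where 0.903% of all genes were, 0 were called higher, and 0 were called in DLD-1 (edgeR). The 3 were STRN, SGPP2 and YKT6, each with 16 shared bases. Their log2 fold changes were −0.78, −0.52 and −0.34 in SW480 and −0.33, −0.23 and −0.14 in DLD-1. For the 162 genes outside the family with exactly 15 shared bases, SW480 had a median log2 fold change of −0.09 with 110 below 0, and DLD-1 one of 0.01 with 78 below 0. All 13619 genes together had medians of −0.0095 and 0. Low SW480 medians were not particular to the shNAT10-1 target. For shNAT10-2, the 123 genes with exactly 15 shared bases had −0.067 in SW480 (82 below 0) and −0.0012 in DLD-1 (63 below 0). The 12 genes besides NAT10 with at least 16 had −0.18 (9 below 0) and 0.0075 (5 below 0). The 1225 genes outside the family with exactly 14 bases of the shNAT10-1 target had −0.054 and 0.0033. Whether the sequence matches bear on the mRNA levels was not tested.

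TARS2 mRNA (Entrez gene 80222) had the lowest log2 fold change of the family in both lines. It measured 42.1 and 37.9 CPM in SW480 shControl and 14.6 and 17.6 CPM in SW480 shNAT10. In DLD-1 it measured 54.6 and 50.4 CPM with shControl and 30.98 and 29.02 CPM with shNAT10. Both knockdown libraries lay below both control libraries in each line, and the knockdown mean was 40.2% of control in SW480 and 57.1% in DLD-1. The main transcript, which held 70.1% of TARS2 counts, counted 510 and 497 in the SW480 controls against 203 and 196 after knockdown. In DLD-1 it counted 642 and 574 against 375 and 275. The level of the main transcript was thus low in all 4 knockdown libraries. The estimated gene totals of TARS2 lay up to 0.35 from a whole number.

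LARS2 mRNA (Entrez gene 23395) had the second lowest log2 fold change in both lines. It measured 43.2 and 39.2 CPM in SW480 shControl and 23.1 and 21.7 CPM in SW480 shNAT10, so that 54.3% of the control mean remained. In DLD-1 it measured 68.6 and 78.5 CPM with shControl and 56.8 and 51.7 CPM with shNAT10, or 73.8% of control. The groups did not overlap in either line. Its main transcript held 87.1% of LARS2 counts. The log2 fold changes were −1.31 for TARS2 and −0.88 for LARS2 in SW480, and −0.81 and −0.44 in DLD-1. For TARS2, LARS2 and NAT10 alike the value nearer 0 was in DLD-1.

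Falls of this size were not seen in the enzymes that charge the same amino acids in the cytosol. TARS1 averaged 501 ± 0.827 CPM in SW480 shControl and 467 ± 8.37 CPM in shNAT10, a log2 fold change of −0.10 (SE 0.0643, adjusted p = 0.41, edgeR). In DLD-1 it was −0.14 (SE 0.0647, adjusted p = 0.83, edgeR). TARS3 was at 20.6 ± 0.224 and 21.4 ± 0.956 CPM in SW480, and its log2 fold change was 0.06 there and 0.11 in DLD-1. LARS1, the cytosolic leucyl-tRNA synthetase, had log2 fold changes of −0.11 in both lines (SE 0.0689 and 0.0717). None of these 3 passed the test in either line. The TARS1 libraries were nonetheless separate and lower with shNAT10 in both lines, and those of LARS1 in DLD-1. For the mean of both lines, the unadjusted p was 0.019 for TARS1 and 0.047 for LARS1 (edgeR).

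**Figure D1:**
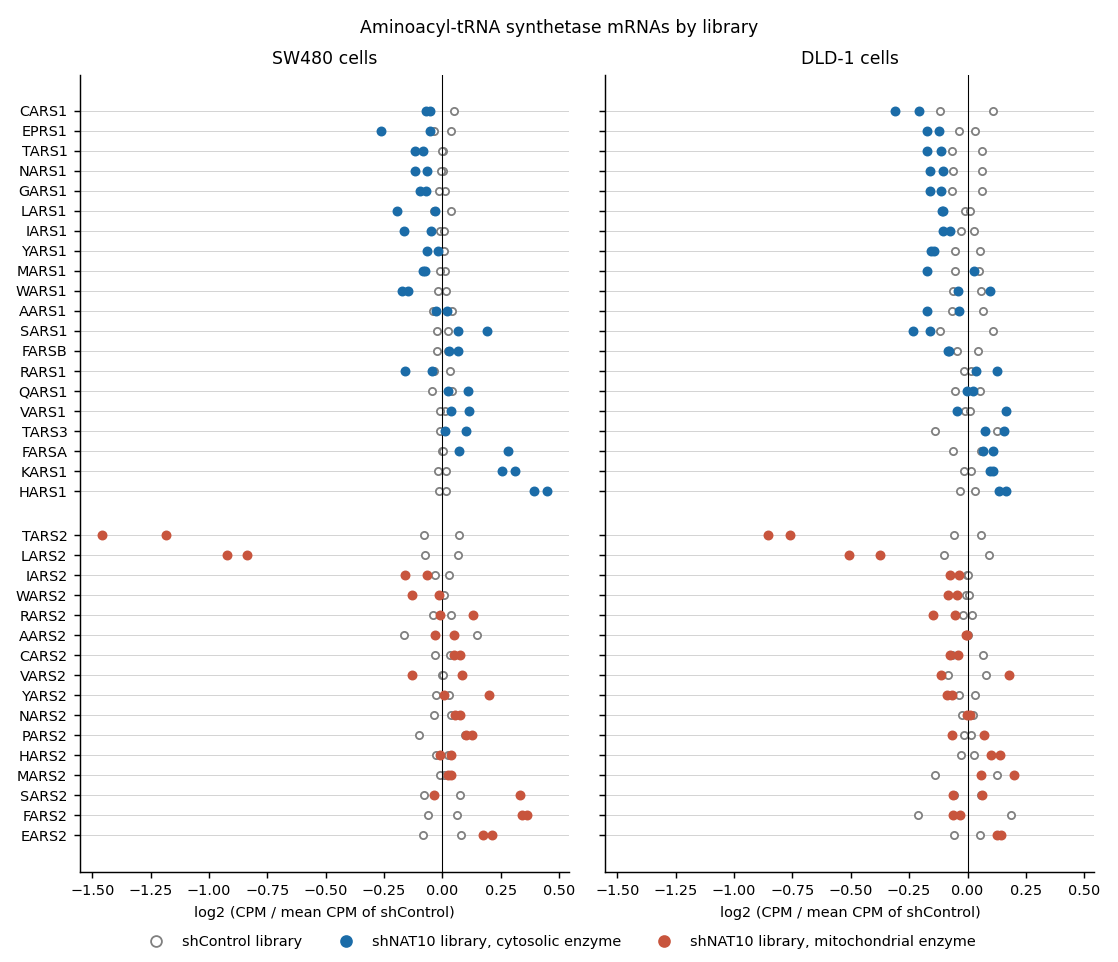
Each row is an enzyme, cytosolic above and mitochondrial below, and the x axis is the log2 ratio of a library's CPM to the mean CPM of the shControl libraries of that cell line. Open grey circles are shControl libraries and filled circles shNAT10 libraries. TARS2 and LARS2 lie far to the left in both lines, and HARS1 and KARS1 to the right in SW480.

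The other 14 mitochondrial enzymes gave no call in either direction in SW480 or DLD-1 (edgeR). Their median log2 fold change in SW480 was 0.06, where 3 were below 0, and −0.00042 in DLD-1, where 7 were below 0. The SW480 extremes were −0.11 for IARS2, which charges isoleucine, and 0.35 for FARS2, which charges phenylalanine. The DLD-1 extremes were −0.10 for RARS2 (arginine) and 0.13 for EARS2 (glutamate). With TARS2 and LARS2 included, the median of the 16 was 0.05 in SW480 and −0.03 in DLD-1. FARS2 measured 9.03 and 9.84 CPM in SW480 shControl and 12.1 and 11.9 CPM in shNAT10, and EARS2 48.5 and 43.3 against 51.9 and 53.2 CPM. Their unadjusted p in SW480 was 0.018 and 0.030, and the adjusted p 0.18 and 0.21 (edgeR). In DLD-1 the FARS2 groups overlapped, with a log2 fold change of −0.05 (SE 0.156), and that of EARS2 was 0.13 (SE 0.0777).

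The 20 cytosolic enzymes had a median log2 fold change of −0.05 in SW480 and −0.09 in DLD-1, with 12 of 20 below 0 in each line. The spread of the median between libraries (SDs of both groups combined) was 0.017 in SW480 and 0.10 in DLD-1. The DLD-1 median thus lay within its spread. HARS1, the cytosolic histidyl-tRNA synthetase, and KARS1, the lysyl-tRNA synthetase, rose in SW480 and were the only enzymes among the other 34 that were called in a knockdown comparison of a cell line. HARS1 (Entrez gene 3035) measured 175 and 172 CPM in SW480 shControl and 237 and 227 CPM in shNAT10, a log2 fold change of 0.42 (SE 0.0616, adjusted p = 0.0040, edgeR). In DLD-1 it measured 126 and 120 against 135 and 138 CPM, a log2 fold change of 0.15 (SE 0.0631, adjusted p = 0.82, edgeR). The groups did not overlap in either line. The SW480 call of HARS1 was lost without either SW480 shControl library and with SW480 fitted alone.

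HARS2, the mitochondrial enzyme for the same amino acid, lies head to head with HARS1 on chromosome 5, and the annotated starts are 85 bases apart. It measured 38.6 and 37.2 CPM in SW480 shControl and 37.6 and 38.9 CPM in shNAT10, with overlapping groups and a log2 fold change of 0.02 (SE 0.0756). The counts of HARS1 and HARS2, like those of TARS2, were among the 6 synthetase totals that were not whole numbers within 0.05. A single HARS1 transcript held 95.5% of its counts. Its counts were 2886 and 2795 for the SW480 controls and 3894 and 3773 after knockdown.

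KARS1 (Entrez gene 3735) measured 221 and 216 CPM in SW480 shControl and 260 and 271 CPM in shNAT10, a log2 fold change of 0.28 (SE 0.0597, adjusted p = 0.031, edgeR). In DLD-1 it measured 279 and 273 against 295 and 298 CPM, a log2 fold change of 0.10 (SE 0.0594, adjusted p = 0.90, edgeR). Its groups also did not overlap in either line. Its SW480 call was lost without either SW480 shControl library or any DLD-1 library, without the filter on low counts, and with SW480 fitted alone. KARS1 makes the cytosolic and the mitochondrial enzyme by alternative splicing. Of its transcripts, the one with 80.5% of the reads counted 2651 and 2710 in the SW480 controls against 3368 and 3558 after knockdown, and the one with 18.4% had 1058 and 914 against 970 and 1026. In SW480 the groups thus separated for the first transcript and overlapped for the second, although the split of reads between transcripts is itself an estimate.

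**Figure D2:**
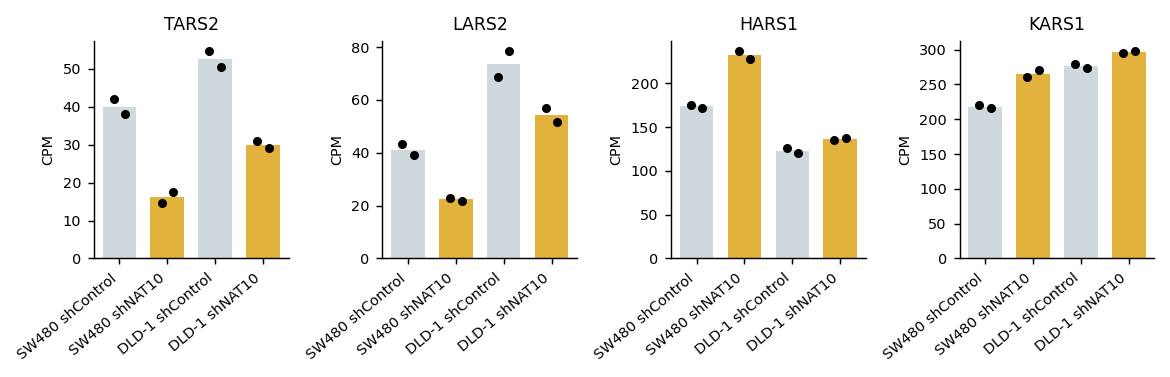
Bars are mean CPM and points the 2 libraries of each group, for TARS2, LARS2, HARS1 and KARS1. The shNAT10 points of TARS2 and LARS2 lie below their controls in both lines, and those of HARS1 and KARS1 lie above, with the wider gap in SW480.

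Set against all genes, the other 34 enzymes were called at these rates. In SW480, 2 of 34 were higher, where 0.778% of all genes tested were, and 0 were lower, where 0.903% were (edgeR). With p under 0.05 before adjustment, 5 were higher and 1 was lower, or 14.7% and 2.94% of the 34, beside 8.69% and 10.6% of all genes. DESeq2 called the same 2 higher and 0 lower in SW480. In DLD-1, 0 of 34 were called in either direction by edgeR, beside 0% of all genes higher and 0.0147% lower. DESeq2 also called 0 of 34 there, and it called 10 genes higher and 5 lower among all genes. At an unadjusted p under 0.05, 4 were lower and 1 was higher there, beside 2.94% and 3.03% of all genes.

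The SW480 libraries of the 2 groups did not overlap for 25 of the 34, 13 higher and 12 lower with shNAT10, or 38.2% and 35.3%, beside 21.7% and 26.2% of all genes. In DLD-1, 15 were separate and lower and 6 separate and higher, or 44.1% and 17.6%, beside 18.2% and 17.7% of all genes.

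For the mean effect over both lines, HARS1 was higher by 0.28 (SE 0.0441, adjusted p = 0.0069, edgeR) and KARS1 by 0.19 (SE 0.0421, adjusted p = 0.046, edgeR). That is 2 of 34 higher and 0 of 34 lower, beside 0.455% and 0.565% of all genes. At an unadjusted p under 0.05, 8 were lower and 4 higher, or 23.5% and 11.8% of the 34, beside 7.76% and 6.7% of all genes. All 8 lower were cytosolic, namely CARS1, EPRS1, TARS1, NARS1, GARS1, LARS1, IARS1 and YARS1, with mean log2 fold changes from −0.16 (CARS1, cysteine) to −0.10 (YARS1, tyrosine) and adjusted p from 0.20 to 0.34 (edgeR). The 4 higher were HARS1, KARS1, EARS2 and FARSA, the catalytic subunit of cytosolic phenylalanyl-tRNA synthetase, whose mean log2 fold change was 0.13 (SE 0.0548, adjusted p = 0.28, edgeR).

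Of the lower cytosolic enzymes, CARS1 had the largest value in DLD-1. It measured 224 and 192 CPM in DLD-1 shControl and 180 and 168 CPM in shNAT10, a log2 fold change of −0.26 (SE 0.0773, adjusted p = 0.57, edgeR). In SW480 its value was −0.06 (SE 0.0765). EPRS1, which charges both glutamate and proline tRNAs, was at −0.15 in each line (SE 0.0732 and 0.0735). WARS1, the tryptophanyl-tRNA synthetase, was at −0.16 in SW480 (SE 0.0674, adjusted p = 0.22, edgeR) and at 0.03 in DLD-1. The cytosolic enzymes AARS1, FARSB, MARS1, QARS1, RARS1 and VARS1 lay between −0.10 (RARS1) and 0.08 (VARS1) in SW480, and between −0.10 (AARS1) and 0.08 (RARS1) in DLD-1.

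SARS1, the cytosolic seryl-tRNA synthetase, had values of opposite sign, 0.13 (SE 0.0765) in SW480 and −0.20 (SE 0.0783) in DLD-1. The difference of the knockdown effect between the lines was 0.33 (SE 0.110, adjusted p = 0.47, edgeR) for SARS1, and it was 0.27 for HARS1 and 0.18 for KARS1. Of the 34, 3 had an unadjusted p under 0.05 for this difference, beside 9.38% of all genes, and 0 were called, beside 0.00734% of all genes. NAT10 was the gene called.

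The 7 enzymes of the multisynthetase complex (EPRS1, IARS1, KARS1, LARS1, MARS1, QARS1 and RARS1) had a median log2 fold change of −0.10 in SW480 and −0.07 in DLD-1, and KARS1 in SW480 was their single call. The other 13 cytosolic enzymes had medians of −0.002 and −0.10. Of the 3 scaffold proteins, AIMP2 was at 0.22 in SW480 (SE 0.0711, adjusted p = 0.14, edgeR) and 0.14 in DLD-1, and none of AIMP1, AIMP2 and EEF1E1 was called. Of 9 further genes of tRNA charging and proofreading and 9 mitochondrial translation factors, 0 were called in SW480, DLD-1 or the mean, with 5 of these 18 below an unadjusted p of 0.05 in SW480, 3 higher and 2 lower, and 0 in DLD-1 (edgeR). The shares of all genes in SW480 were 8.69% and 10.6%. GATC, a subunit of the mitochondrial glutaminyl-tRNA amidotransferase, was at −0.11 for the mean (adjusted p = 0.31). GFM2 and MTRF1L, which act in mitochondrial ribosome recycling and release, were at −0.13 and −0.14 for the mean (adjusted p = 0.27 and 0.28, edgeR). Of 5 cytosolic elongation factors, 0 were called, with 1 at an unadjusted p under 0.05 in each line (edgeR), and all 5 values were above 0 in SW480 and below 0 in DLD-1.

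Promoters were compared because the lower unadjusted values were all cytosolic. The element TTGCATCA (or TGATGCAA on the other strand), at which ATF4 can bind with a C/EBP partner, was chosen after the values were seen and was sought on both strands from 250 bases before to 50 bases after each RefSeq gene start. A promoter was listed for 30 of the 36 enzymes. A gene was counted when any of its listed promoters held the element. That was so for 6 of 16 cytosolic enzymes (37.5%), 0 of 14 mitochondrial enzymes, and 86 of 11037 tested genes with a promoter listed (0.779%). The stretches below are 30 bases of GRCh38.p14 around it, on the strand of the gene, with the element in capitals.
AARS1, chr16:70289675-70289704, minus strand: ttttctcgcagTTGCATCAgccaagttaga
CARS1, chr11:3057407-3057436, minus strand: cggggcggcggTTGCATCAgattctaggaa
IARS1, chr9:92293692-92293721, minus strand: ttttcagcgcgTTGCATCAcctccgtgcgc
MARS1, chr12:57488053-57488082, plus strand: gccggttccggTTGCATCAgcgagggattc
NARS1, chr18:57621804-57621833, minus strand: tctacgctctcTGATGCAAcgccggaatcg
TARS1, chr5:33440956-33440985, plus strand: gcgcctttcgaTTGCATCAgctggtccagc

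These 6 enzymes, for alanine, cysteine, isoleucine, methionine, asparagine and threonine, all had log2 fold changes below 0 in both lines. The SW480 values lay between −0.11 and −0.0017 and the DLD-1 values between −0.26 and −0.07, with 0 of 6 called (edgeR) and 0 and 2 of 6 at an unadjusted p under 0.05. The AARS1 groups overlapped in both lines and the MARS1 groups in DLD-1. The first DLD-1 control library was above the second for all 6, as for CARS1 (224 and 192 CPM). Over the fits without a library, the DLD-1 values nearest 0 were −0.14 for CARS1, −0.059 for IARS1, −0.065 for NARS1 and −0.072 for TARS1. The 10 cytosolic enzymes that were searched and lacked the element had 4 below 0 in each line, and medians of 0.06 in SW480 and 0.02 in DLD-1. For the mean of both lines 6 of these 10 were below 0 (median −0.013), beside 6 of 6 with the element (median −0.11). At an unadjusted p under 0.05 for the mean, 2 of the 10 were lower (EPRS1 and GARS1) and 3 higher, beside 4 and 0 of the 6 (edgeR). LARS1, TARS3, VARS1 and YARS1, with no promoter listed, were not searched, and 2 of these 4 were below 0 in each line. Of all genes tested, 51.9% (SW480) and 49.0% (DLD-1) were below 0.

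The same element is known from some genes of the amino acid response. A list of 24 genes of that response was compared, whether or not they carry it. In DLD-1, 22 of 24 were below 0 (median −0.18) and 0 were called, with 9 (37.5%) lower at an unadjusted p under 0.05 (edgeR), beside 2.94% of all genes. The DLD-1 groups were separate and lower for 10 of 24 (41.7%), beside 18.2% of all genes, and separate and higher for 0. The first DLD-1 control library was above the second for ASNS (307 and 247 CPM), PSAT1 (489 and 430 CPM) and TRIB3 (290 and 234 CPM). For ATF3 the 2 were close (58.1 and 56.5 CPM). In SW480, 11 of 24 were below 0 (median 0.02) and CHAC1, a glutathione-degrading enzyme, fell by 0.39 on the log2 scale (SE 0.0909, adjusted p = 0.047, edgeR). For the mean of both lines, 4 of 24 (16.7%) fell and 0 rose, beside 0.565% and 0.455% of all genes. They were CHAC1 (−0.33), VLDLR, a lipoprotein receptor (−0.39), SLC7A11, a cystine transporter (−0.31), and PSAT1, a serine synthesis enzyme (−0.25), with adjusted p from 0.023 to 0.037 (edgeR). ATF4 and ASNS are named as the factor and a known target, outside the naming rule. ATF4 had log2 fold changes of 0.07 in SW480 (SE 0.0797) and −0.09 in DLD-1 (SE 0.0798). ASNS, the asparagine synthetase, was at −0.15 and −0.32 (adjusted p = 0.36 and 0.48, edgeR).

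Levels per length (TPM) compare the enzymes with each other. They were computed from the counts with transcript lengths implied by the authors' own values. In control cells the 20 cytosolic enzymes summed to 4299.6 ± 129 TPM in SW480 and 3199 ± 42.6 TPM in DLD-1, and the 16 mitochondrial enzymes to 469.6 ± 17.01 and 412 ± 14.96 TPM. The cytosolic sum was 9.16 ± 0.0576 times the mitochondrial sum in SW480 and 7.77 ± 0.386 times in DLD-1. With shNAT10 these ratios were 9.28 ± 0.0322 and 7.88 ± 0.0170. The knockdown ratios lay within the range of the controls in DLD-1 and just above it in SW480.

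GARS1, for glycine, was the most abundant enzyme in every library, with 816 ± 20.7 TPM in SW480 shControl and 330.3 ± 8.98 TPM in DLD-1 shControl. In SW480 the next were SARS1 at 416 ± 5.79 and WARS1 at 408 ± 21.2 TPM, which did not differ beyond their spread. In DLD-1 the next were TARS1 at 249 ± 6.15 and NARS1, for asparagine, at 247 ± 6.08 TPM, which also did not differ beyond their spread. TARS3 was the lowest cytosolic enzyme, with 10.97 ± 0.434 TPM in SW480 and 6.28 ± 0.374 TPM in DLD-1.

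Among mitochondrial enzymes, IARS2 was the most abundant, with 91.7 ± 6.16 TPM in SW480 shControl and 91.5 ± 3.595 TPM in DLD-1 shControl. The lowest were AARS2, for alanine, at 7.42 ± 1.44 TPM in SW480, and FARS2 at 6.64 ± 0.993 TPM in DLD-1. PARS2, for proline, was close to them at 8.70 ± 1.16 TPM in SW480, within the spread of AARS2. In control cells TARS2 was at 25.5 ± 1.04 TPM in SW480 and 32.8 ± 0.561 TPM in DLD-1, and LARS2 at 14.2 ± 0.712 and 25.2 ± 3.996 TPM. The median of the 16 mitochondrial enzymes was 22.8 TPM in SW480 and 18.6 TPM in DLD-1, so LARS2 was below it in SW480 and above it in DLD-1, while TARS2 was above it in both.

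Of 18 cytosolic and mitochondrial pairs that charge the same amino acid, the cytosolic enzyme was higher per length in all 8 libraries in 17. The exception was TARS3 with TARS2, where TARS3 was higher in 1 of 8 libraries. The ratio of TARS1 to TARS2 was 12.5 in SW480 shControl and 29.1 in SW480 shNAT10, and 7.59 and 12.02 in DLD-1. That of LARS1 to LARS2 was 4.54 and 7.60 in SW480, and 1.37 and 1.74 in DLD-1. Among the other 17 pairs the smallest ratios were those of LARS1 to LARS2, down to 1.26, and IARS1 to IARS2, between 1.47 and 2.19, and the highest was that of WARS1 to WARS2, up to 40.3.

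The comparison of shControl cells between the lines took no part in the choice of genes, so all 36 could be tested. Between SW480 and DLD-1 shControl cells, 19 of the 36 enzymes were higher in SW480 and 12 lower, beside 38.1% and 35.6% of all genes. Without TARS2 and LARS2, 19 of 34 were higher and 10 lower. Among cytosolic enzymes 12 were higher and 5 lower, and among mitochondrial enzymes 7 and 7. The median log2 difference was 0.25 for the cytosolic and 0.04 for the mitochondrial enzymes, against 0.01 for all genes. With a correction for GC content the calls were 12 higher and 15 lower, and with a correction for transcript length 13 higher and 16 lower. Called directions turned under these corrections, for CARS1, MARS1 and YARS2 with GC content and for CARS1, EPRS1, RARS2 and YARS2 with length. Those corrections moved the median of all genes to −0.18 and −0.21, and 22 and 21 of the 36 enzymes lay above these medians, against 22 without correction.

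The largest differences were in SARS2, the mitochondrial seryl-tRNA synthetase, WARS1 and GARS1. SARS2 measured 40.3 and 36.1 CPM in SW480 shControl and 12.7 and 11.7 CPM in DLD-1 shControl, a log2 difference of 1.65 (SE 0.127, adjusted p = 2.3e-08, edgeR). WARS1 measured 631 and 647 against 247 and 227 CPM, a log2 difference of 1.43 (SE 0.0694, adjusted p = 1.2e-10, edgeR). GARS1 measured 1175 and 1155 against 507 and 464 CPM, a log2 difference of 1.26 (SE 0.0669, adjusted p = 3.4e-10, edgeR). SARS1 and LARS1 followed with 0.90 and 0.87, so that both the cytosolic and the mitochondrial seryl enzymes were higher in SW480.

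LARS2 was the enzyme furthest below DLD-1. It measured 43.2 and 39.2 CPM in SW480 against 68.6 and 78.5 CPM in DLD-1, a log2 difference of −0.84 (SE 0.0879, adjusted p = 7.3e-07, edgeR), opposite in sign to that of LARS1. WARS2, also opposite to its cytosolic counterpart, was at −0.71 (SE 0.0916, adjusted p = 6.4e-06, edgeR). QARS1, for glutamine, was at −0.68, EARS2 at −0.52 and VARS1, for valine, at −0.50. TARS2 was at −0.39 (SE 0.0913, adjusted p = 0.0013, edgeR), and TARS1 at 0.31 (SE 0.0645, adjusted p = 0.00052, edgeR). The signs of the 5 largest differences in each direction were the same under all alternatives run. The enzymes NARS1, IARS2, RARS1, YARS1 and MARS2 did not pass the test.

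**Figure D3:**
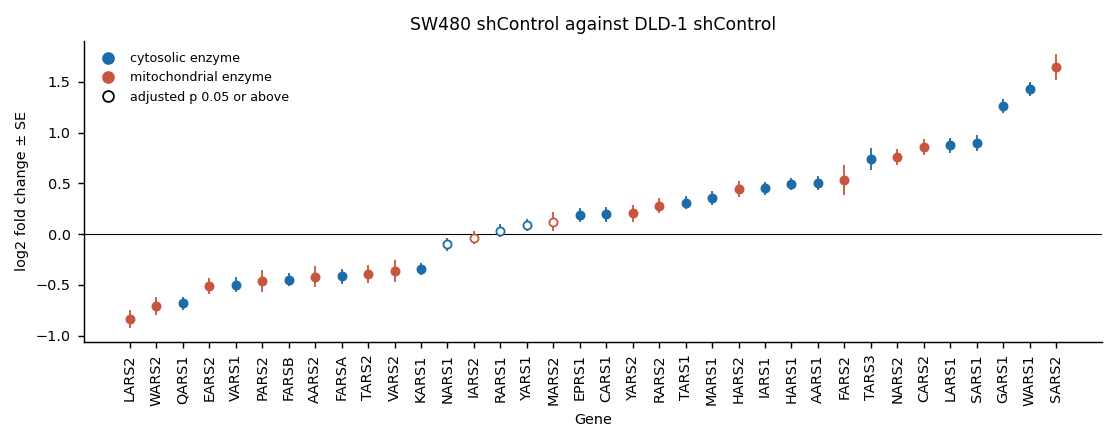
Points are log2 fold changes of SW480 shControl against DLD-1 shControl with bars of 1 SE, for the 36 enzymes in order. Values run from −0.84 for LARS2 to 1.65 for SARS2, and the 5 open points did not pass an adjusted p of 0.05.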

How the data were processed

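The labels' cell line and virus set the groups. The authors deposited estimated counts for each RefSeq transcript, unnormalized, and an FPKM table for each library. The submitters' processing notes name HISAT2 2.0.4, Bowtie2 2.2.5, RSEM 1.2.12 and hg38. FPKM stopped part of the way in SW480 shNAT10 replicate 2, so effective lengths were derived from counts and FPKM of the other 7 libraries and used to compute TPM. Columns of averages that the authors deposited were not used.

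Counts were summed per Entrez gene and rounded, and symbols came from RefSeq names (99.3% of genes). filterByExpr (minimum count 10, minimum total 15) and TMM scaling preceded edgeR 4.0.16 (R 4.3.3), whose model had 4 group means and no replicate term. The biological coefficient of variation was 0.0585. SEs were derived from each log2 fold change and its F statistic. The members and lists were chosen with earlier results of these data known. Genes named are TARS2, LARS2 and their cytosolic partners, members with an unadjusted p under 0.05 in a knockdown contrast, the 5 largest line differences each way, extremes of level, NAT10, and at most 4 genes of each other list with an unadjusted p under 0.05 in both lines or their mean.

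Hairpin targets came from the study's supplementary list of hairpins and were placed on GENCODE v29 transcripts of GRCh38, for 13491 tested genes. Promoters came from RefSeq (GRCh38.p14). DESeq2 1.42.0, other normalizations, filters, a replicate block, length and GC corrections (loess, span 0.5) and leaving out each library were alternatives. The model was tested on simulated data.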

Additional observations from a re-analysis of the deposited data

Results flagged for a closer look

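The knockdown of NAT10 itself differed between the cell lines by the test of the difference. Its log2 fold change in SW480 was more negative than that in DLD-1 by a difference of −1.16 (SE 0.118, adjusted p = 0.0015, edgeR), with 401 and 477 counts in the SW480 shNAT10 libraries and 1002 and 829 in those of DLD-1. No synthetase was called for such a difference.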

How the results depend on the processing

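The lower counts below are TARS2 and LARS2 unless other enzymes are named. The choice of the family rests on their low values, so these counts are descriptions and no test of either gene. When a library was left out, its group kept 1 library, which was assumed to vary like the other groups. Across those fits the enzymes called in SW480 were 2 to 3 lower and 0 to 4 higher, in DLD-1 0 to 2 lower and 0 higher, for the mean 2 to 3 lower and 0 to 3 higher, and for the difference 0 to 1 lower. The median of the cytosolic enzymes ran from −0.053 to −0.029 in SW480, −0.12 to −0.030 in DLD-1, −0.093 to −0.017 for the mean and 0.20 to 0.34 between control lines. That of the mitochondrial enzymes ran from 0.026 to 0.083, −0.050 to 0.011, −0.0044 to 0.041 and −0.020 to 0.10. The DLD-1 count of lower enzymes was 0 without DLD-1 shControl replicate 1 or either DLD-1 shNAT10 library. KARS1 in SW480 was lost without either SW480 shControl library or any DLD-1 library. For the mean, HARS1 and KARS1 were lost without either SW480 shControl or either DLD-1 shNAT10 library, and KARS1 also without either DLD-1 shControl library. Without SW480 shNAT10 replicate 2, FARSA and SARS2 were also called higher and EPRS1 lower in SW480. Their log2 fold changes there were 0.28, 0.34 and −0.26. Far more of all genes were called in SW480 in that fit than with every library kept, so these calls are not particular to the enzymes.

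Without the filter on low counts, 1 enzyme was higher in SW480 and for the mean (HARS1), and 0 were lower in DLD-1. With each cell line fitted alone, 0 were higher in SW480 and 2 lower in DLD-1. Length and GC correction each gave 2 lower in DLD-1, and length correction also called CARS1 lower and EARS2 higher for the mean. Of all genes, length correction called 185 lower and 238 higher for the mean, against 77 and 62 without correction. GC correction gave 12 higher between control lines, a cytosolic median of −0.026 in SW480, and medians of 0.072 (cytosolic) and −0.12 (mitochondrial) between control lines. Length correction gave 0.040 and −0.16 there. At the study's own limits (an unadjusted p under 0.05 with a fold above 1.2 or below 0.83), 2 were lower in DLD-1, 1 was higher for the mean, and 2 were lower and 2 higher for the difference.

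Over all genes, same-numbered libraries deviated together little (correlations 0.087 in SW480 and −0.0034 in DLD-1). Across the lines the correlations were 0.085 for shControl and 0.084 for shNAT10. Correlations over all genes cannot show whether the numbers mark pairs or a batch that acts on some genes. The replicate block gave 3 lower in DLD-1 (with CARS1), 4 lower for the mean (with CARS1 and EPRS1), and 1 lower and 1 higher (SARS1) for the difference. Of all 13619 genes, that fit called 29 lower in DLD-1 and 435 lower for the mean, against 2 and 77 without the block. In SW480 it called 920 lower and 734 higher, against 123 and 106. For the difference it called 102 lower and 107 higher, against 1 and 0. Over the fits without a library, log2 fold changes ran from −0.086 to 0.034 for SARS1 in the mean, and in DLD-1 from −0.23 to 0.17 for FARS2, −0.013 to 0.26 for TARS3 and −0.039 to 0.098 for WARS1. The signs of SARS1 and FARS2 turned without DLD-1 shControl replicate 1, that of TARS3 without DLD-1 shControl replicate 2, and that of WARS1 without DLD-1 shControl replicate 2 (−0.028) or shNAT10 replicate 1. The causes were not tested.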
